A study of Mus musculus with 6 samples.

Results

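The genes described here encode the Wnt ligands, their receptors and the secreted or membrane proteins that modulate them, followed in lung mesenchymal stromal cells (MSC) of mice. They were taken by name from a list of 54 genes. Of these, 50 had a row among the 20645 rows of the gene table, and Sfrp2, Sfrp5, Kremen2 and Sostdc1 were not listed. Transcripts were sequenced in 6 libraries from C57BL/6 mice with the genotype Tbx4-rtTA/TetO-Cre/mT-mG: an rtTA transgene named for the lung mesenchyme gene Tbx4, a tetracycline-controlled Cre recombinase, and a membrane reporter, red (TdTomato) until Cre acts and green (GFP) afterwards. All 6 libraries share this genotype and a doxycycline treatment from embryonic day 6.5 to postnatal day 1. Dissociated lung cells were separated by flow cytometry into a green group (mG, 3 libraries), in which Cre had acted in the cell or an ancestor, and a red group (mT, 3 libraries), in which it had not. The mT group is therefore defined by the absence of the switch, whether or not a cell belongs to the Tbx4 lineage. Age at harvest, animals per library and any gate beyond the reporter are not stated in the labels, and no reporter gene was listed that could check the sort.

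Wnt proteins are lipid-modified by Porcn, carried to the surface by Wls, and bind Frizzled receptors. With the coreceptors Lrp5 and Lrp6 they stabilise beta-catenin, whereas with Ror1, Ror2, Ryk or Ptk7 they act on cell polarity and movement. R-spondins bind Lgr4, Lgr5 and Lgr6 and keep the ubiquitin ligases Rnf43 and Znrf3 from removing Frizzleds, while Sfrp proteins, Frzb and Wif1 bind the ligands and Dkk1 and Dkk2 bind Lrp5 and Lrp6. In the mouse lung, mesenchymal Wnt2 and Wnt2b specify the organ, Wnt5a shapes the airways and air sacs, and Rspo2 is needed for branching.

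Total counts were 18345956 to 19183323 in mG and 16850394 to 19426103 in mT. Levels are given as CPM, that is counts scaled to a common library total after TMM normalization. Stromal genes were abundant in every library (Pdgfra, Pdgfrb, Col1a1 and Col1a2 summed to 6906 to 20287 CPM in mG and 13790 to 17086 CPM in mT). Col1a1 was lowest in mG replicate 2, at 1120 CPM, against 7038 and 7667 CPM in mG replicates 1 and 3. Smooth muscle markers, all 6 listed, summed to 14904, 2007 and 5394 CPM in mG replicates 1 to 3. In mT they summed to 7140 to 10968 CPM, and none passed. Of 9 epithelial markers 2 were listed, at no more than 0.53 CPM summed in mG and 0.179 CPM in mT, and 7 of 8 leukocyte markers summed to 8.93 to 15.9 CPM in mG and 11.8 to 18.9 CPM in mT. Of the endothelial markers, 8 of 9 were listed and summed to 24.5 to 263 CPM in mG and 52.8 to 184 CPM in mT, of which Flt1 alone made up 22.2 to 256 CPM in mG and 52.3 to 172 CPM in mT. Pecam1, Cdh5 and Emcn were each at no more than 0.381 CPM in every mG library and at 0 in mT replicate 2, but at 7.03, 6.78 and 33.5 CPM in mT replicate 1 and 1.68, 0.658 and 6.28 CPM in mT replicate 3. Pericyte markers, 8 of 9 listed and 6 tested, summed to 190 to 337 CPM in mG and 385 to 555 CPM in mT, and 2 of them, Trpc6 and Ebf1, fell in mG. Adventitial fibroblast markers, 4 of 5 listed, summed to 231 to 375 CPM in mG and 518 to 576 CPM in mT, and none passed. Ly6a alone made up 15.3 to 239 CPM of this sum in mG and 488 to 560 CPM in mT. Of the other adventitial markers, Col14a1 was higher in every mG library, at 127 to 214 CPM, against 1.14 to 32 CPM in mT. Pi16 and Cd34 overlapped between the groups. Proliferation markers, all 5 listed, summed to 750, 275 and 177 CPM in mG replicates 1 to 3, against 218, 170 and 54.9 CPM in mT, and none passed. Lung mesenchyme markers (Tbx4, Tbx5, Foxf1 and Tcf21, all 4 listed) summed to 132, 97.3 and 106 CPM in mG replicates 1 to 3, against 36.0, 5.62 and 20.7 CPM in mT, and Tcf21 had no count in mT replicate 2. One library stood apart: in mG replicate 2 the 9 listed cartilage markers of 12 summed to 5072 CPM, against 1629 and 1882 CPM in mG replicates 1 and 3 and 403 to 918 CPM in mT. Col11a1 made up 1433 to 1861 CPM of this sum in mG and 381 to 844 CPM in mT, and the rest of the sum was highest in mG replicate 2. There Sox9 was at 145 CPM and Col2a1 at 2714 CPM, against 8.11 and 8.18 CPM of Sox9 in mG replicates 1 and 3. Col9a1 had no count in mG replicate 1 or in any mT library, and Col9a2 none in mG replicate 3 and mT replicates 1 and 2. Whether replicates are separate animals is not stated, and p-values then reflect only the spread among these libraries, which may be technical.

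The coreceptor gene Lrp5 was the only one of the Wnt genes to pass the test between the groups, and it fell in mG. The R-spondin genes took opposite sides, with Rspo1 and Rspo2 lower in every mG library than in any mT library and Rspo3 higher, though none of these passed. Of the 50 listed genes 38 passed the filter on low counts and 12 did not, the filter asking for about 10 counts in at least 3 libraries of either group. In edgeR's quasi-likelihood test, adjusted over all 13560 genes tested, 0 of 38 rose and 1 fell in mG, which is 2.63%, against 0.914% of all genes tested (0.199% higher and 0.715% lower in mG). With the replicate number as a block 2 of 38 passed, against 0.796% of all genes. With DESeq2 10 of 38 passed, against 910 of the same 13560 genes and 5.96% of the 16103 genes it adjusted. At an unadjusted p under 0.05 the count was 17 of 38, against 14.6% of all genes. Values did not overlap between the groups for 17 of the 38, that is 7 higher and 10 lower in mG, or 44.7%, against 20.8% of all genes (9.97% higher and 10.8% lower). The median log2 fold change (mG over mT) was -0.22 over the 38 and 0.02 over all genes, and the median of its size without sign was 0.77 and 0.24. Where replicate numbers pair the libraries, 24 of 38 genes (63.2%) had the same direction in all 3 pairs, against 40.8% of all genes. RNA was pooled over cells, so fewer cells of a type and less RNA per cell cannot be told apart in any of these values.

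**Figure D1:**
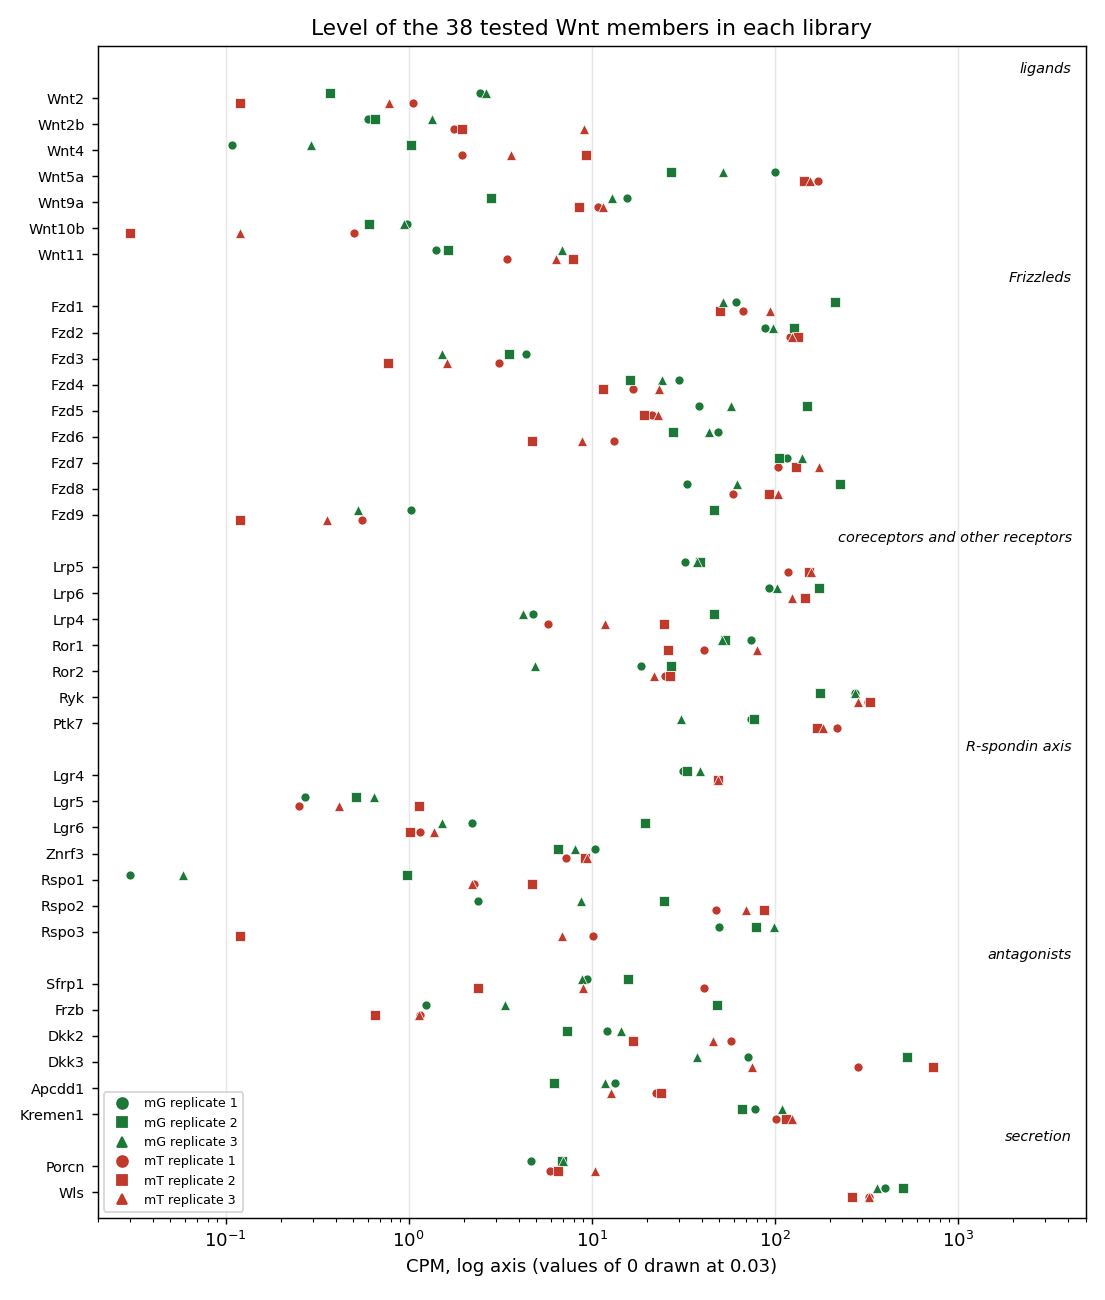
Level of each of the 38 tested Wnt genes in every library, in CPM on a log axis, ordered by role, with mG in green above mT in red and 1 symbol per replicate number. Lrp5 lies at 32.6 to 39.0 CPM in mG and 119 to 158 CPM in mT without overlap, and mG replicate 2 (green squares) lies far to the right of the other mG libraries for Fzd9, Lgr6, Frzb, Lrp4 and Dkk3.

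**Figure D2:**
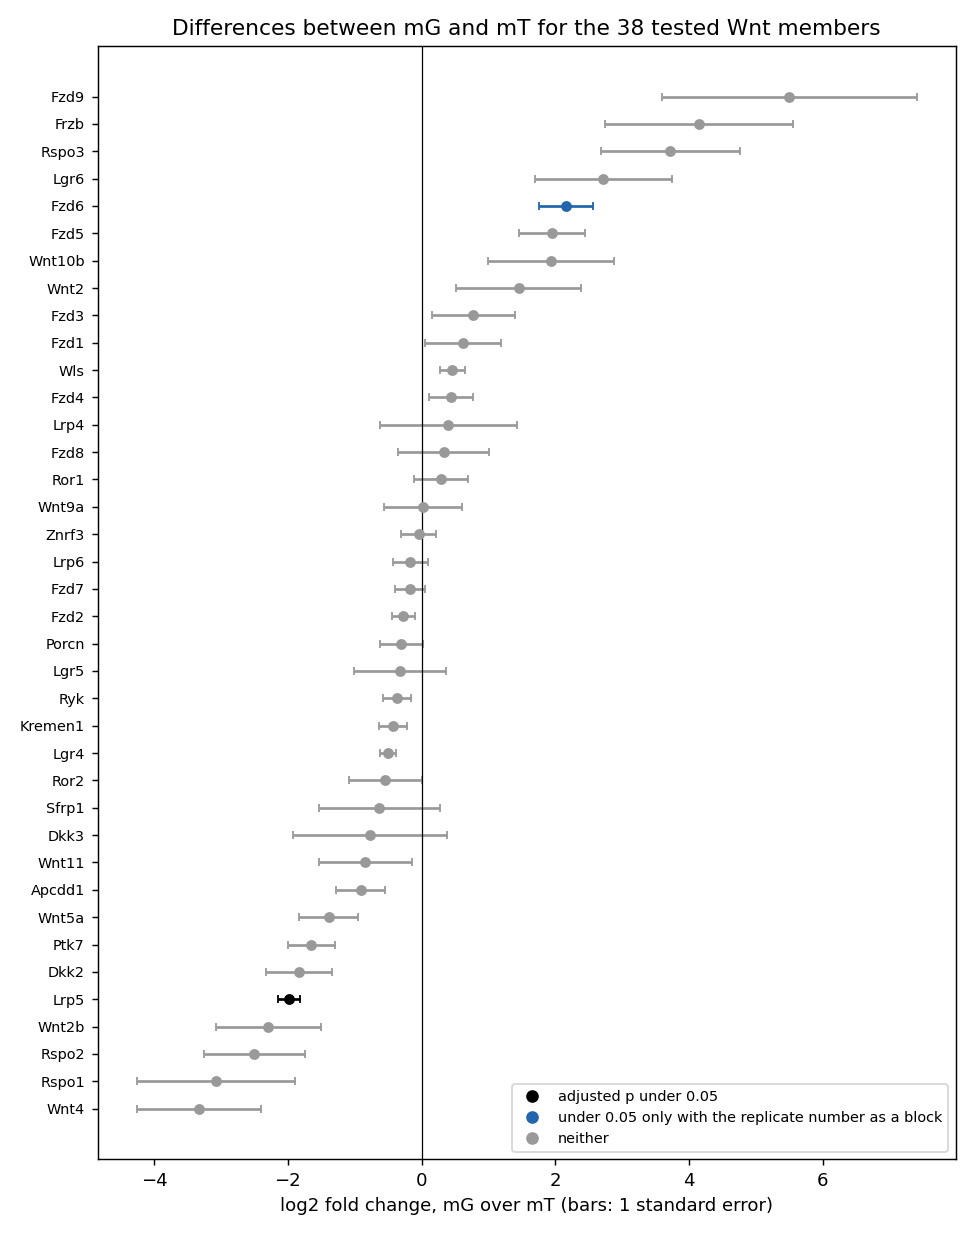
Log2 fold change of mG over mT with 1 standard error for the 38 tested Wnt genes from edgeR's quasi-likelihood fit. Lrp5 (black, -1.98) has a narrow error and passes, Fzd6 (blue, 2.16) passes with the replicate number as a block, and the widest errors belong to genes dominated by 1 library such as Fzd9.

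Lrp5 on chromosome 19, which encodes a coreceptor needed for beta-catenin signalling and known for its role in bone mass, had 32.6, 39.0 and 37.6 CPM in mG replicates 1 to 3, against 119, 154 and 158 CPM in mT replicates 1 to 3. Every mG library was below every mT library, and the spread within each group was small beside the gap. Means were 36.4 ± 3.39 CPM in mG and 143 ± 21.5 CPM in mT (SD, n = 3 each), a log2 fold change of -1.98 ± 0.16 (SE) with adjusted p = 0.00881. With the block the adjusted p was 0.028. With each library left out in turn the log2 fold change was -2.10 to -1.90 and the adjusted p 0.0163 to 0.0513, the highest without mT replicate 3. With both libraries numbered 2 left out it was 0.0523. Of the pericyte markers, Ebf1 was lower in the same libraries, at 39 to 55.7 CPM in mG and 132 to 189 CPM in mT. Trpc6 was lower too, at 0.118 to 0.545 CPM in mG and 8.35 to 23.7 CPM in mT, as were Notch3 and Cox4i2. Cspg4 overlapped, at 128 to 179 CPM in mG and 81.4 to 259 CPM in mT, and Rgs5 was highest in mG replicate 2, at 69.9 CPM. The part of these markers in the Lrp5 value was not tested. The other coreceptor of the same kind, Lrp6 on chromosome 6, had 93.8, 174 and 103 CPM in mG, against 146, 147 and 125 CPM in mT. Its groups overlapped, and its log2 fold change of -0.17 ± 0.26 had adjusted p = 0.849.

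Per length, that is in CPM per kilobase of merged exons, Lrp5 made up 32.8%, 23.9% and 34.0% of the Lrp5 and Lrp6 transcripts in mG replicates 1 to 3, against 53.4%, 59.5% and 64.0% in mT. Lrp5 was thus the smaller part in each mG library and the larger part in each mT library. The difference between the changes of Lrp5 and Lrp6 was not tested. Both together came to 12.8 ± 3.5 CPM per kilobase in mG and 24.9 ± 1.88 CPM per kilobase in mT.

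**Figure D3:**
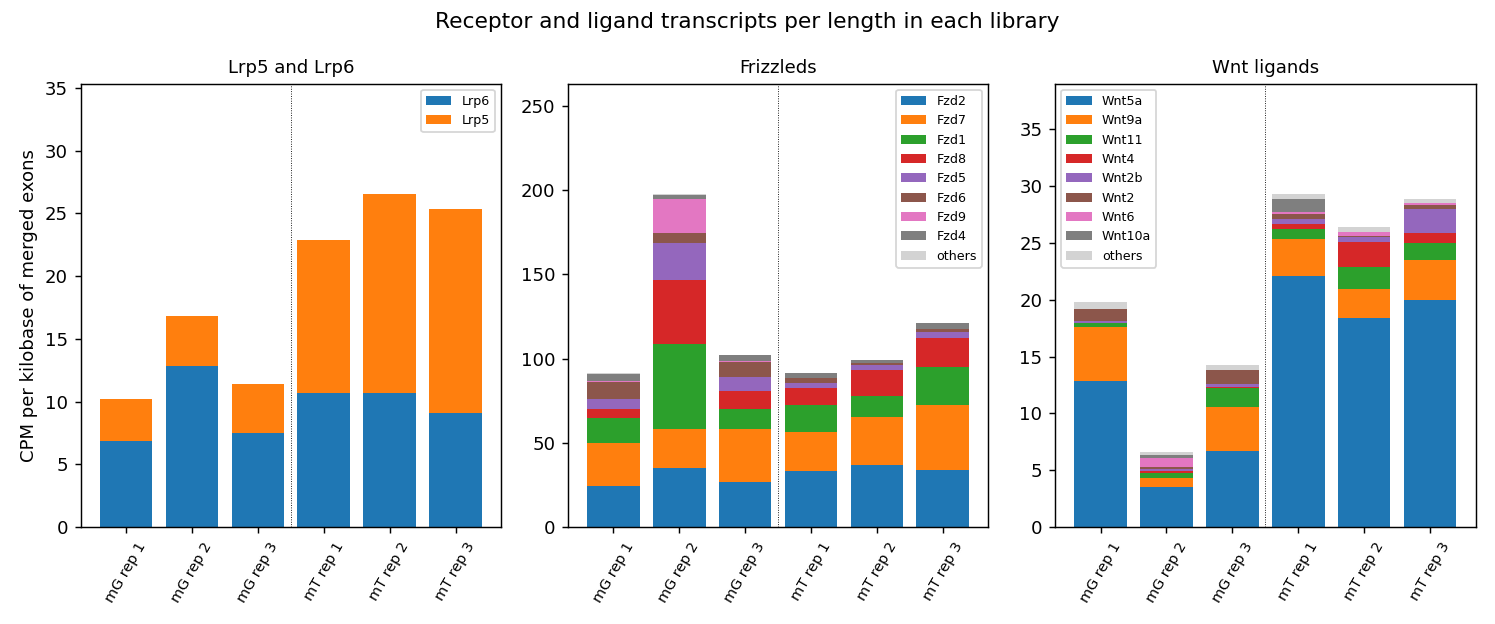
Stacked levels in CPM per kilobase of merged exons for Lrp5 and Lrp6, the Frizzleds and the Wnt ligands, 1 bar per library, mG left of mT. The Lrp5 segment is short in all mG bars, the Frizzled total of mG replicate 2 reaches 198 against 91.4 to 121 in the other libraries, and Wnt5a forms most of the ligand bar in mT.

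Among the other receptors, Ptk7 on chromosome 17, a catalytically inactive tyrosine kinase of planar cell polarity, had 74.2, 77.3 and 30.8 CPM in mG, against 219, 170 and 183 CPM in mT. The groups did not overlap, and the log2 fold change was -1.65 ± 0.35 with adjusted p = 0.113. Ryk on chromosome 9, a Wnt-binding receptor related to tyrosine kinases, was among the most abundant of these genes per length in both groups. It had 274, 177 and 274 CPM in mG, against 322, 331 and 284 CPM in mT. Its highest mG values lay just under its lowest mT value, and the adjusted p was 0.489. The Wnt5a receptors did not differ beyond their spread: Ror1 averaged 59.8 ± 12.7 CPM in mG and 49.0 ± 27.6 CPM in mT, and Ror2 averaged 16.9 ± 11.2 CPM in mG and 24.7 ± 2.48 CPM in mT, with adjusted p = 0.835 and 0.745. Lrp4, which binds the antagonist sclerostin and is best known from the neuromuscular junction, had 46.9 CPM in mG replicate 2 and 4.79 and 4.24 CPM in mG replicates 1 and 3, against 5.77 to 25 CPM in mT. The log2 fold change of Lrp4, 0.40, turned to -1.66 without mG replicate 2.

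Of the 9 Frizzled genes tested, 7 (77.8%) were fitted above 0 in mG, against 53.1% of all genes. Without mG replicate 2 the count was 5 of 9 (55.6%), against 49.5% of all genes, as Fzd1 turned to -0.33 and Fzd8 to -0.86 on the log2 scale. None of the 9 passed the quasi-likelihood test, although the unadjusted p of 3 was under 0.05 (33.3%, against 14.6% of all genes). DESeq2 called Fzd5 and Fzd6, and limma-voom called 0. Fzd6 on chromosome 15, which in mice orients hair and inner ear cells, had 49.3, 27.7 and 43.8 CPM in mG, against 13.3, 4.72 and 8.92 CPM in mT. The lowest mG library was above the highest mT library. Means were 40.3 ± 11.3 CPM in mG and 8.98 ± 4.29 CPM in mT (SD, n = 3 each), and the ratio of mG to mT was 3.71, 5.85 and 4.92 in pairs 1 to 3. Fzd6 had a log2 fold change of 2.16 ± 0.41 with adjusted p = 0.0837. With the replicate number as a block it was 2.24 with adjusted p = 0.0361, and without mG replicate 2 the adjusted p was 0.0489. Over the fits that leave out a library the adjusted p of Fzd6 ran from 0.0489 to 0.326.

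Fzd5 on chromosome 1, a beta-catenin pathway receptor that mouse embryos need for the yolk sac vessels, had 38.6, 150 and 57.9 CPM in mG, against 21.4, 19.3 and 23.0 CPM in mT. All mG libraries were higher than all mT libraries, with mG replicate 2 far above the rest. Fzd5 had a log2 fold change of 1.95 ± 0.50 with adjusted p = 0.152. Without mG replicate 2 the log2 fold change was smaller, 1.17, and the adjusted p was 0.0484. Over the fits that leave out a library the adjusted p of Fzd5 ran from 0.0484 to 0.438. In unstranded libraries, genes on the opposite strand overlap 17.8% of the exon bases of Fzd5 and 3.15% of those of Fzd6, in GENCODE M21, and their reads cannot be told apart.

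Fzd2, Fzd7, Fzd1 and Fzd8 had the highest mean levels per length among the Frizzleds in both groups. In mG the place of Fzd8 rested on replicate 2, at 38 CPM per kilobase, since in mG replicate 1 it was at 5.6 and Fzd6 at 10.2 CPM per kilobase. Their mean levels ran from 18 CPM per kilobase for Fzd8 to 28.6 for Fzd2 in mG, and from 14.4 for Fzd8 to 34.6 for Fzd2 in mT. Fzd2 averaged 105 ± 20.4 CPM in mG and 127 ± 6.45 CPM in mT, and Fzd7 averaged 121 ± 18.7 CPM in mG and 137 ± 34.8 CPM in mT, with adjusted p = 0.529 and 0.809. Fzd1 and Fzd8 rested on mG replicate 2 in the mG group. Fzd1 had 213 CPM there and 61.3 and 52.1 CPM in mG replicates 1 and 3, against 50.6 to 94.3 CPM in mT, and Fzd8 had 227 CPM there and 33.4 and 62.1 CPM in mG replicates 1 and 3, against 59.6 to 104 CPM in mT. Fzd9 had 46.8 CPM in that library, 1.03 and 0.53 CPM in the other mG libraries and 0.12 to 0.556 CPM in mT, so its log2 fold change of 5.50 ± 1.90 was set by 1 library (adjusted p = 0.263) and was 1.14 without it. Fzd3 and Fzd4 overlapped between the groups, at 3.15 ± 1.46 and 23.6 ± 6.9 CPM in mG and at 1.84 ± 1.2 and 17.3 ± 5.91 CPM in mT.

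Promoter sequence was at hand for 29 of the 50 genes, in 33 windows, as the 250 bases before a RefSeq transcription start on GRCm38.p6. Windows of 4 genes are shown, picked after their values were seen: for the Frizzleds, ligands, other receptors and antagonists, the gene with the smallest adjusted p that had a window. None of the 4 passed, and Fzd5 was higher in mG while Wnt4, Ptk7 and Dkk2 were lower. Capitals mark GGGCGG, the core of the GC box, and TATAAA, the TATA box, on either strand. They lie at chr1:64737751-64738000 on the minus strand, chr4:137277385-137277634 on the plus strand, chr17:46629505-46629754 on the minus strand and chr3:132085042-132085291 on the plus strand.
Fzd5: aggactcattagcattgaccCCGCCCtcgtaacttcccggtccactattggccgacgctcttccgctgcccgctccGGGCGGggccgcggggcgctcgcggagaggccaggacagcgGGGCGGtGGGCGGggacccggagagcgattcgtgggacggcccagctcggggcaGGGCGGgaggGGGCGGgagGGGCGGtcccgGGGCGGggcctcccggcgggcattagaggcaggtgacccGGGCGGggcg
Wnt4: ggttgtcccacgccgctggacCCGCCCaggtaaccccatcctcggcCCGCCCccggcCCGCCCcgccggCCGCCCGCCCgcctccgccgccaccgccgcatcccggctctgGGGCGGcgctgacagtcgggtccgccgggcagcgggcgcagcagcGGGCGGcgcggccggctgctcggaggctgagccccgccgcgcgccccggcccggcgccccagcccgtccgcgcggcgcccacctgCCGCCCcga
Ptk7: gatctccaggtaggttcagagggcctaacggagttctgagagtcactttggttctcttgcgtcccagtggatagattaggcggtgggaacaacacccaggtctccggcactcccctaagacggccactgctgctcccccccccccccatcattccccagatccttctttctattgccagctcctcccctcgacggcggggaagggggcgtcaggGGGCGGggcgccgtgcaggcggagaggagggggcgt
Dkk2: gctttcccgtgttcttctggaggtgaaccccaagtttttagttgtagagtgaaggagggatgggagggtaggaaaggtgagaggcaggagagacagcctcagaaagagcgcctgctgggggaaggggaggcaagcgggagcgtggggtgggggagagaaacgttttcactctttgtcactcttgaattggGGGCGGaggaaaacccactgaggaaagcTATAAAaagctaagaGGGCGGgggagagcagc

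The Fzd5 and Wnt4 windows hold 9 and 8 GC boxes and no TATA box, at 76.4% and 85.2% G or C. That of Ptk7 holds 1 GC box. That of Dkk2 holds 2 GC boxes, with a TATA box that begins 32 bases before the start, at 55.6% G or C. GGGCGG occurs in 23 of the 33 windows of these genes (69.7%), against 32.7% of all 32851 windows of the same length, and TATAAA in 6 of 33 (18.2%), against 12.4%. CTTTGAA or CTTTGAT, words of the motif bound by TCF and LEF factors at the end of the Wnt pathway, occur on either strand in 3 of 33 windows (9.09%), against 7.48% of all windows, and in none of the 4 shown. AGGTGTGA, a word of the motif bound by T-box factors, occurs in 0 of 33 windows, against 1.12% of all windows. These are matches of letters in a fixed window and not known binding sites.

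R-spondin genes lay on both sides of the comparison. Rspo3 on chromosome 10, known in mice for its part in blood vessel growth, had 49.9, 78.7 and 99.5 CPM in mG, against 10.2, 0.12 and 6.88 CPM in mT. All mG libraries were higher than all mT libraries, and mT replicate 2 held 2 counts of this gene. The ratio of mG to mT was 4.91 and 14.5 within pairs 1 and 3. Rspo3 had a log2 fold change of 3.72 ± 1.04 with adjusted p = 0.183, and without mT replicate 2 the adjusted p was 0.0713. Over the fits that leave out a library its adjusted p ran from 0.0713 to 0.502. Library mT replicate 2 also had the lowest sum of lung mesenchyme markers, 5.62 CPM, and the part of this in the Rspo3 value was not tested. An opposite-strand gene overlaps 13.1% of the exon bases of Rspo3 in GENCODE M21.

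Rspo2 on chromosome 15, a mesenchymal signal to the branching airway in mice, had 2.40, 24.8 and 8.77 CPM in mG, against 47.6, 87.0 and 70.0 CPM in mT. Every mG library was below every mT library. Rspo2 had a log2 fold change of -2.50 ± 0.76 with adjusted p = 0.216, and without mG replicate 2 it was -3.63 with adjusted p = 0.046. Its adjusted p ran from 0.046 to 0.502 over the fits that leave out a library. Rspo1 on chromosome 4, which promotes ovary development in mice, was scarcer, with 0, 0.983 and 0.0589 CPM in mG, against 2.28, 4.72 and 2.21 CPM in mT. For Rspo1 a log2 fold change of -3.07 ± 1.18 had adjusted p = 0.309. Without mG replicate 2, which held 94.3% of the mG level and all but 1 of its counts, it was -6.45 with adjusted p = 0.0364. The adjusted p of Rspo1 ran from 0.0364 to 0.642 over the fits that leave out a library. Rspo4, needed for nail formation in people, did not pass the filter: it had no count in mG and 12, 8 and 1 counts in mT replicates 1 to 3, so it was at least 7.46-fold lower in mG with the floor set at 3 counts over the mG group.

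Per length, Rspo3 made up 97.2%, 82.6% and 94.9% of R-spondin transcripts in mG replicates 1 to 3, against 23.4%, 0.196% and 13.0% in mT. Rspo2 made up 2.82%, 15.7% and 5.05% in mG, against 66.4%, 86.4% and 80.1% in mT. The leading R-spondin thus differed between the groups in all 6 libraries. The sum of the 4 genes was 27.1 ± 9.24 CPM per kilobase in mG and 16.9 ± 2.83 CPM per kilobase in mT, values that overlapped.

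**Figure D4:**
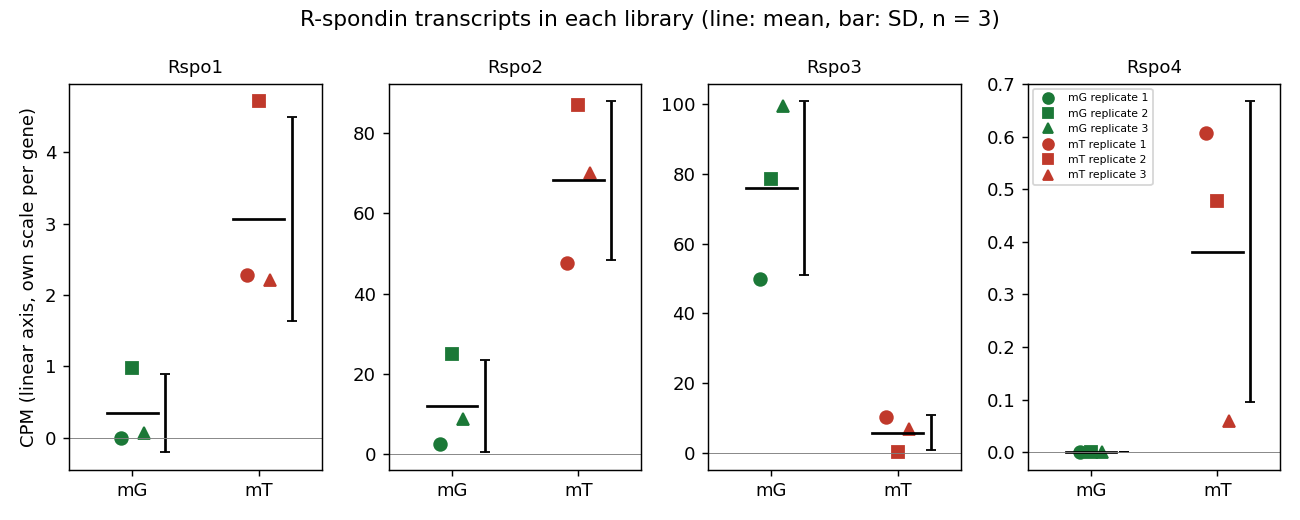
CPM of the 4 R-spondin genes in each library, with mG left of mT, the mean as a line and the SD as a bar (n = 3 each). Rspo1 and Rspo2 lie higher in mT and Rspo3 lies higher in mG, each without overlap, and Rspo4 has no count in mG.

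Of their receptors, Lgr4 on chromosome 2 was the main one per length, at 85.2 ± 16.8% of Lgr transcripts in mG and 97.3 ± 0.375% in mT. It had 31.7, 33.1 and 39.0 CPM in mG, against 48.9, 49.1 and 49.0 CPM in mT. The mT libraries were nearly equal and all above mG, and the log2 fold change of -0.50 ± 0.12 had adjusted p = 0.147. Lgr6 on chromosome 1, which in mouse airways marks mesenchymal cells, had 2.23, 19.7 and 1.53 CPM in mG, against 1.16, 1.02 and 1.38 CPM in mT. The groups did not overlap, but mG replicate 2 held 84.0% of the mG level. Lgr6 had a log2 fold change of 2.72 ± 1.02 with adjusted p = 0.299, and 0.66 without mG replicate 2. The stem cell receptor Lgr5 averaged 0.478 ± 0.19 CPM in mG and 0.603 ± 0.469 CPM in mT. Znrf3, the ligase that removes Frizzleds, averaged 8.39 ± 1.99 CPM in mG and 8.63 ± 1.22 CPM in mT, and its paralog Rnf43 had 3 counts over mG and 1 over mT. In the quasi-likelihood test 0 of 7 tested genes of this axis passed. The unadjusted p of 5 was under 0.05 (71.4%, against 14.6% of all genes). DESeq2 called Lgr6 and Rspo2, and limma-voom called 0.

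Wnt5a was the most abundant ligand per length in every library and made up 54.9 ± 9.39% of Wnt transcripts in mG and 71.5 ± 3.49% in mT. This ligand on chromosome 14, the main one of beta-catenin independent signalling, had 101, 27.3 and 52.2 CPM in mG, against 173, 144 and 157 CPM in mT. All mG libraries were below all mT libraries and spread more widely. Wnt5a had a log2 fold change of -1.39 ± 0.44 with adjusted p = 0.234, and an opposite-strand gene overlaps 4.58% of its exon bases in GENCODE M21. The sum of the 12 ligands was 13.6 ± 6.64 CPM per kilobase in mG and 28.2 ± 1.59 CPM per kilobase in mT, without overlap (19.8, 6.60 and 14.3 in mG, against 29.3, 26.4 and 28.9 in mT).

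Wnt4 on chromosome 4, which acts in kidney and gonad development, had 0.109, 1.03 and 0.294 CPM in mG, against 1.97, 9.27 and 3.65 CPM in mT. Although its libraries differed among themselves, none of the mG values reached mT. Wnt4 had a log2 fold change of -3.33 ± 0.93 with adjusted p = 0.18 (0.0514 with the block). Wnt2b on chromosome 3 had 0.599, 0.655 and 1.35 CPM in mG, against 1.77, 1.97 and 9.04 CPM in mT. Its highest value, in mT replicate 3, stood apart, and the adjusted p was 0.258. The log2 fold change was -2.29 ± 0.78, and -1.10 without mT replicate 3. Wnt10b on chromosome 15, a ligand that restrains fat cell formation, had 0.98, 0.608 and 0.942 CPM in mG, against 0.506, 0 and 0.12 CPM in mT, and an adjusted p of 0.416.

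Wnt2, the ligand of early lung specification, had 2.45, 0.374 and 2.65 CPM in mG, against 1.06, 0.12 and 0.778 CPM in mT. The groups overlapped, while the ratio of mG to mT was 2.31, 3.13 and 3.40 in pairs 1 to 3, with adjusted p = 0.546 and 0.194 with the block. Wnt9a averaged 10.5 ± 6.79 CPM in mG and 10.3 ± 1.57 CPM in mT, and Wnt11 averaged 3.31 ± 3.1 CPM in mG and 5.91 ± 2.27 CPM in mT. Of the 7 ligands tested none passed the quasi-likelihood test. The unadjusted p of 3 was under 0.05 (42.9%, against 14.6% of all genes). DESeq2 called Wnt2b and Wnt4, and limma-voom called 0.

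The other 5 ligands did not pass the filter. Wnt5b had 14, 5 and 6 counts in mG and 8, 12 and 9 counts in mT. Wnt6 had 0, 36 and 2 counts in mG, against 7, 13 and 5 counts in mT, and Wnt10a had 0, 14 and 0 counts in mG, against 55, 0 and 1 counts in mT. Those of Wnt6 in mG and of Wnt10a in both groups came mostly from a single library. Wnt16, named after its values were seen, had no count in mG and 5, 6 and 4 counts in mT, so it was at least 5.33-fold lower in mG with the floor set at 3 counts over the mG group. It is among 7 genes that stayed under 10 counts in every library, with Wnt7b, Fzd10, Rnf43, Sfrp4, Dkk1 and Notum, whose highest count in a library was 6.

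Of the 6 antagonist genes tested, 5 (83.3%) were fitted below 0 in mG, against 46.9% of all genes, and none passed. With the block the count was 4 of 6 (66.7%), against 50.7% of all genes, and without mT replicate 1 also 4 of 6, against 46.7% of all genes. Dkk2 on chromosome 3, which binds Lrp5 and Lrp6, had 12.1, 7.30 and 14.5 CPM in mG, against 57.7, 16.9 and 46.0 CPM in mT. The lowest mT library, replicate 2, was close to the highest mG library. Dkk2 had a log2 fold change of -1.83 ± 0.49 with adjusted p = 0.167, or 0.0665 with the block. Dkk3 on chromosome 7, a divergent family member whose role in Wnt signalling is unsettled, was the most abundant of the tested genes by mean level per length in both groups. In mG this place rested on replicate 2, at 157 CPM per kilobase. In mG replicates 1 and 3 Dkk3 was at 21.2 and 11.3 CPM per kilobase, below Fzd7 at 25.8 and 31.3. In mT replicate 3 it was also below Fzd7, at 22.3 against 38.5 CPM per kilobase. Dkk3 had 71.2, 527 and 37.8 CPM in mG, against 284, 730 and 74.9 CPM in mT. Both libraries numbered 2 were high, so the groups overlapped while mG was below mT in each pair, at 0.251, 0.723 and 0.505 times. Dkk3 had a log2 fold change of -0.77 ± 1.15 with adjusted p = 0.847, which turned to 0.24 without mT replicate 2.

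Frzb on chromosome 2, a secreted Frizzled-like protein of cartilage, had 1.25, 48.2 and 3.35 CPM in mG, against 1.16, 0.658 and 1.14 CPM in mT. All mG values exceeded all mT values, and 91.3% of the mG level came from replicate 2. Frzb had a log2 fold change of 4.15 ± 1.40 with adjusted p = 0.255, and 1.20 without that library. Sfrp1, of the same family, had 9.42, 15.8 and 8.89 CPM in mG, against 41.3, 2.39 and 8.98 CPM in mT. Its mT values enclosed all those of mG, and its log2 fold change of -0.63 turned to 0.10 with the block and to 1.00 without mT replicate 1. Kremen1, a partner of the Dickkopf proteins, averaged 84.9 ± 22.6 CPM in mG and 115 ± 11.8 CPM in mT, and Apcdd1, a membrane inhibitor, averaged 10.5 ± 3.81 CPM in mG and 19.8 ± 6.12 CPM in mT, with adjusted p = 0.414 and 0.333. Wif1, which did not pass the filter, had 0, 17 and 0 counts in mG, against 5, 6 and 6 counts in mT. In the quasi-likelihood test the unadjusted p of 3 of the 6 antagonist genes tested was under 0.05 (50%, against 14.6% of all genes). DESeq2 called Frzb and Dkk2, and limma-voom called 0.

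Genes for making the ligands were present in every library. Wls on chromosome 3, the carrier of Wnt proteins, had 400, 505 and 365 CPM in mG, against 328, 266 and 329 CPM in mT. All mG libraries were above all mT libraries by a small margin, and the log2 fold change of 0.46 ± 0.19 had adjusted p = 0.337. Porcn, the acyltransferase, averaged 6.18 ± 1.3 CPM in mG and 7.64 ± 2.48 CPM in mT, with adjusted p = 0.761.

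Library mG replicate 2 held over 75% of the summed mG level of 6 of the 38 genes (15.8%), against 2.01% of all genes tested. These were Fzd9, Frzb, Rspo1, Lgr6, Lrp4 and Dkk3. The cartilage markers stood at their highest sum in the same library, and their part in these values was not tested. Without that library 5 of the 38 genes passed, against 2.62% of all genes then tested. They were Lrp5, Rspo1 and Rspo2, lower in mG, and Fzd5 and Fzd6, higher in mG.

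**Figure D5:**
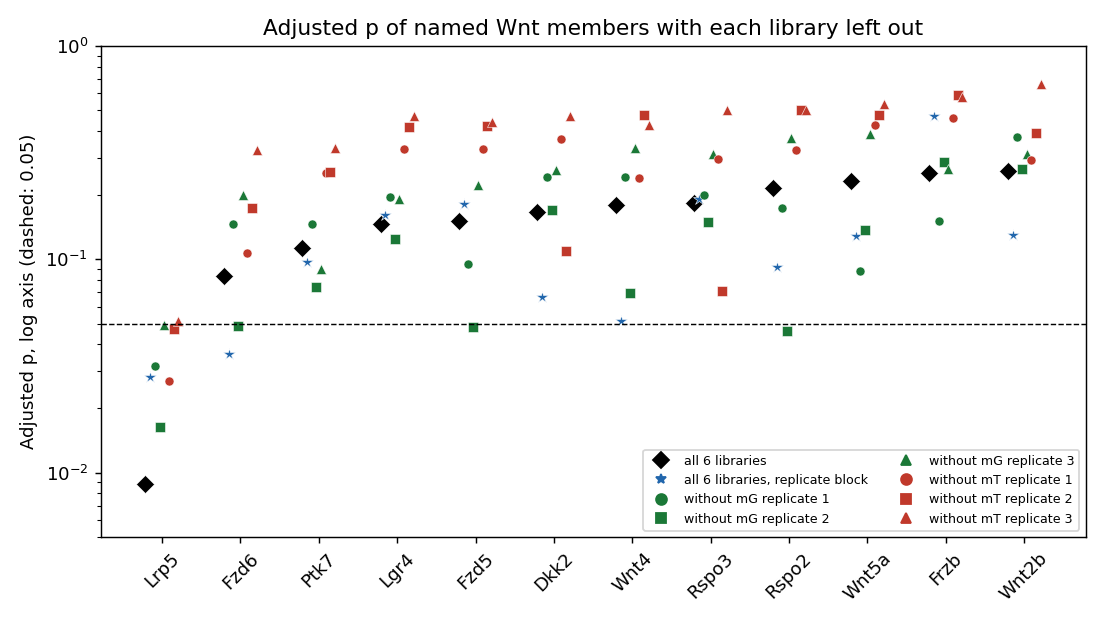
Adjusted p, on a log axis, of the 12 named Wnt genes with the smallest values, for all 6 libraries, with the replicate number as a block, and with each library left out. Lrp5 stays near or below the dashed line at 0.05, its highest value being 0.0513 without mT replicate 3, while Fzd6 falls below it with the block and without mG replicate 2, and Fzd5 and Rspo2 without mG replicate 2.

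For the same 2 groups, the authors' deposited table has a log2 fold change and an adjusted p for each of the 50 genes. In it 15 of 50 (30.0%) had an adjusted p under 0.05, 6 higher and 9 lower in mG, against 6.05% of all its named genes. That analysis differs from the main test here: its score is a likelihood ratio and its name gives another normalization (RUV_UQ). It also has values for genes that did not pass the filter here, such as Wnt16 and Rspo4. The likelihood-ratio test run here called 10 of the 38 Wnt genes and 766 of all 13560 genes. The part of these differences in the counts was not tested. Higher in mG in the authors' deposited table were Fzd5, Fzd6, Fzd9, Lgr6, Frzb and Rspo3, and lower were Wnt2b, Wnt4, Wnt16, Lrp5, Ptk7, Dkk2, Rspo1, Rspo2 and Rspo4. The adjusted p in the authors' deposited table was 0.00096 for Fzd6, 0.00493 for Rspo3 and 0.0104 for Rspo2. Fzd9, Lgr6 and Frzb, all 3 dominated by mG replicate 2, had 0.00283, 0.0274 and 0.00439 in the authors' deposited table.

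Of the intracellular and cell polarity genes of the pathway, 36 of 39 were tested, and 1 rose and 1 fell in mG (5.56%, against 0.914% of all genes). Tle1, which encodes a corepressor of TCF factors, had 46.5 ± 2.3 CPM in mG and 18.2 ± 1.36 CPM in mT (adjusted p = 0.0131). Nkd2, an inhibitor that binds Dishevelled, had 12.5 ± 3.46 CPM in mG and 193 ± 59.0 CPM in mT (adjusted p = 0.00964). The median log2 fold change of the 36 was -0.02, close to the 0.02 of all genes. The unadjusted p of 10 was under 0.05 (27.8%, against 14.6% of all genes). Values did not overlap between the groups for 7 (19.4%, against 20.8% of all genes). DESeq2 called Nkd2, Tle1, Lef1, Prickle1 and Ccnd1, and limma-voom called 2. Axin2, Lef1 and Nkd1 were picked after their values were seen and did not pass the quasi-likelihood test. Axin2, a widely used target of beta-catenin signalling, averaged 0.257 ± 0.315 CPM in mG and 0.794 ± 0.308 CPM in mT (adjusted p = 0.538). It had only 3, 13 and 0 counts in mG and 14, 19 and 9 counts in mT. Lef1 averaged 0.314 ± 0.215 CPM in mG and 2.23 ± 0.699 CPM in mT, without overlap (adjusted p = 0.112). Nkd1 lay on the other side, at 17.9 ± 18.6 CPM in mG and 7.31 ± 1.36 CPM in mT (adjusted p = 0.521), with 38.8 CPM in mG replicate 2. Of 20 further extracellular genes of the family 11 were listed and 8 tested. None passed the quasi-likelihood test, and the unadjusted p of 3 was under 0.05 (37.5%, against 14.6% of all genes). DESeq2 called Cthrc1 and Igfbp4, and limma-voom called 0.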

How the data were processed

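Libraries of sorted lung MSC were unstranded, per the labels' protocols. Reads were handled with tools that the submitters' processing notes list as STAR, cutadapt 5.0, Trimmomatic 0.38, FastQC 0.11.9 and edgeR 4.0. Build, annotation and read counter: not given in the sources used here. The authors deposited 1 table with, per the file headers, whole-number counts per gene and library. The deposited RPKM columns and the columns named TMM, a scaled signal, were not used. The deposited log2 fold changes, likelihood-ratio score, −log10 values and p-value columns are the authors' own, used only where the text says so. The table's listed length was within 5% of the summed exons of all transcripts in GENCODE M21 for 97.5% of genes, a median of 1.54 times the merged exons. Levels per length therefore use merged exons of that annotation.

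The 36 rows without a gene name (0.013% to 0.0352% of counts) were left out, and where a symbol had several rows the one with more counts was kept. Columns were assigned by library name. edgeR 4.0.16 in R 4.3.3 (glmQLFit, glmQLFTest) was run on the counts with TMM factors of 0.926 to 1.13, filterByExpr (minimum count 10) and, at 0.05, p-values adjusted by Benjamini-Hochberg over 13560 genes. A standard error is the log2 fold change over the square root of F. At these depths 3 counts are 0.14 to 0.18 CPM. Floors cover counting error only. The script was tested on simulated data.

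Same-numbered mG and mT libraries had correlations of their deviations from group means of 0.24, 0.18 and 0.3, all above 0.1, so the numbers were taken as pairing the libraries. This rests on the correlations alone, as no label explains the numbers. The main test has no block. The blocked value is printed where it changes a call, and also for Lrp5, Wnt4, Wnt2, Dkk2 and Sfrp1. Among other genes the block raised the adjusted p of some, as for Fzd5 (0.182), Frzb (0.47) and Lgr6 (0.464). It lowered that of others without changing a call, as for Wnt2b (0.13), Wnt5a (0.128), Ptk7 (0.0971), Rspo1 (0.169), Rspo2 (0.0918) and Dkk3 (0.204). Values per library are given for genes past the threshold with or without the block, genes whose groups do not overlap, the 3 most abundant per length in each group and the smallest adjusted p of each role class, as well as for untested genes with 10 or more counts in a library. Some genes beyond this rule are given as means, and Wnt2, Lrp6, Fzd1, Fzd8, Fzd9, Lrp4 and Sfrp1 with values of single libraries. Alternatives were RLE and upper-quartile normalization, no filter, a filter at 1 CPM in 3 libraries, limma-voom (limma 3.58.1), DESeq2 1.42.0, the block, each library and both libraries numbered 2 left out, and a likelihood-ratio test added later. The genes, lists and tests were chosen with earlier results of these data known.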

Additional observations from a re-analysis of the deposited data

How the results depend on the processing

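The count of 124 genes over the whole table and of 1 Wnt gene, Lrp5, changed by less than 1.5 times with upper-quartile or RLE normalization, both other filters and limma-voom. With DESeq2 the counts were 960 and 10, and with the likelihood-ratio test, added after seeing the data, 766 and 10. The 10 Wnt genes of DESeq2 were Lrp5, Wnt2b, Wnt4, Fzd5, Fzd6, Ptk7, Lgr6, Frzb, Dkk2 and Rspo2. With the replicate number as a block 108 genes and 2 Wnt genes, Lrp5 and Fzd6, passed, and the block changed no other call among the Wnt genes. With both libraries numbered 2 left out 46 genes and 0 Wnt genes passed in the quasi-likelihood test. With each library left out the counts ran from 20 (without mT replicate 3) to 362 (without mG replicate 2), and from 0 to 5 Wnt genes in the same order. Unadjusted p was under 0.05 for 15 of 37 Wnt genes without both libraries numbered 2 and 12 of 41 without mT replicate 3. The share of all genes in these fits was not counted, so these counts stand without a background. No other tool was run on these subsets. Fewer libraries enter these fits, and the cause of the other shifts was not tested. Over the fits that leave out a library the log2 fold change of Dkk3 ran from -2.74 (without mG replicate 2) to 0.24 (without mT replicate 2). Of the 38 tested Wnt genes 28 kept the sign of their log2 fold change in every alternative that gave a value, and 10 did not. Besides Dkk3 these were Wnt9a (-0.39 to 0.46 over the alternatives), Fzd1 (-0.52 to 0.95), Fzd7 (-0.33 to 0.04), Fzd8 (-0.86 to 0.75), Lrp4 (-1.66 to 1.08), Ror1 (-0.02 to 0.83), Lgr5 (-0.70 to 0.50), Znrf3 (-0.23 to 0.15) and Sfrp1 (-1.47 to 1.00), none of which passed with all 6 libraries. Wnt16, Fzd10 and Rspo4 had no count in mG, so their fold allows only a bound, set at 3 counts over the mG group.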
